A study of Mus musculus with 9 samples.

Results

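Untreated cultured microglia were described from 3 of the 9 arrays of the study, those labelled as controls with no stimulation and numbered 1 to 3. Membership followed the labels alone and used no measured value. The cells were primary microglia of C57BL/6J mice of postnatal age P0-P2, which had been shaken off mixed glial cultures of the cortex, seeded on plastic dishes in serum-containing medium and left untreated until RNA was collected at the 6 h time point. The other 6 arrays, of microglia given medium conditioned by LN18 or U87-MG glioma cells, were not used for any level given here. Each control replicate came from a separate cortical culture, in which the cells of several neonatal animals can be mixed, and the labels give no sex. The cells were neonatal, had been grown with serum and were away from neurons, which limits them as a model of microglia in the brain.

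Microglia are the resident macrophages of the brain. They arise from yolk sac progenitors and depend on signalling through the receptor Csf1r, on the transcription factors PU.1 (Spi1) and Irf8, and on transforming growth factor beta. In the healthy brain they survey the tissue, prune synapses and take up dying cells and debris, and in culture with serum they are known to take on an amoeboid shape and to lose part of the gene expression that sets them apart from other macrophages.

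Levels were log2 signals of single probe sets, each a group of short probes for one transcript. For a gene with several probe sets the brightest was used, and 17097 genes had a value. Signals of different probe sets depend on how well their probes bind, so the order of genes by signal is not an order of abundance. Each gene was therefore read against a floor, set on every array as the 95th percentile of 85 genes of odorant, taste and pheromone receptors, which brain macrophages are not known to use. The floor lay at 3.88, 3.84 and 3.83 on control replicates 1, 2 and 3, and a gene was called above the floor when it was higher on all 3 arrays. By this call 9255 genes, or 54.1%, were above the floor, and the median over all genes was 4.35. Among 69 measured genes of eye lens, hair keratin, testis, gut and similar tissues 8, or 11.6%, were above the floor. The highest of them was the milk protein gene Csn2, at 6.62, 6.59 and 6.82. A signal over the floor, also by more than a narrow margin, thus does not by itself show expression, and a signal under it does not show absence. The arrays correlated across the 17097 genes with Pearson's r between 0.9976 and 0.9984, a description across genes that are not independent. The median SD over the 3 arrays was 0.08 among genes above the floor. In the values as deposited the mean over the 3 arrays of a replicate number was the same for all 3 numbers at 100% of probe sets, within 1e-06. Differences between the means of the replicate numbers are thus absent, an untreated array that is high is balanced by the treated arrays of the same number, and every SD below (n = 3) holds only the spread that remains. Values in threes are for control replicates 1, 2 and 3 in this order.

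PU.1, which sets up the macrophage lineage, binds DNA at purine-rich sites, and promoters with its core motif GAGGAAGT are shown here because they belong to identity genes read on these arrays. The windows of 300 bases end 50 bases after the transcription start and are RefSeq sequences of mouse build GRCm38.p6, written 5′ to 3′ on the strand of the gene, with the motif, or its reverse complement, in capitals. They lie at chr3:95526536-95526835 for Ctss on the plus strand, and on the minus strand at chr4:136892865-136893164 for C1qc, chr6:65144681-65144980 for Hpgds and chr7:99711291-99711590 for Slco2b1.
Ctss: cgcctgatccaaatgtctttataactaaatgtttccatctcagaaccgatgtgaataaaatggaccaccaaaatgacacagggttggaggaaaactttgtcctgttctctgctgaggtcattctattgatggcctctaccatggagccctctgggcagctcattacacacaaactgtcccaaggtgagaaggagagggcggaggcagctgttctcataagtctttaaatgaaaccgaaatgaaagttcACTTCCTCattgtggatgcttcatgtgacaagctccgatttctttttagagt
C1qc: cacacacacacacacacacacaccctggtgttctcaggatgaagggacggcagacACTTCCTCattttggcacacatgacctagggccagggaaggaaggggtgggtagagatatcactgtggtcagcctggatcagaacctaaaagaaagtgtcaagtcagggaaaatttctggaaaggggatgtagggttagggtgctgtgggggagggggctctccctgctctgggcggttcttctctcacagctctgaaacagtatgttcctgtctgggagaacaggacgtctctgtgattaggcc
Hpgds: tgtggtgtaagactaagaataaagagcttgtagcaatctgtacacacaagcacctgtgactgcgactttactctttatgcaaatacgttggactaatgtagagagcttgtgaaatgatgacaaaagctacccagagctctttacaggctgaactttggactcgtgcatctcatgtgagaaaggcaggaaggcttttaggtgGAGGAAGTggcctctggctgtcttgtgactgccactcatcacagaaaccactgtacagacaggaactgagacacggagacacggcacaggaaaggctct
Slco2b1: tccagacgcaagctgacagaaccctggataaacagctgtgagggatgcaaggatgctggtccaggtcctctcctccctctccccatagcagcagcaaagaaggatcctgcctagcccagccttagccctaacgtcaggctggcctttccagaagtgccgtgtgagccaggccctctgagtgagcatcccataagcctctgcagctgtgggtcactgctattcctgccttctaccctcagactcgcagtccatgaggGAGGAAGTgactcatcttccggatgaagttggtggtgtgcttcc
These 4 genes held the motif on either strand among the 46 of 61 measured identity genes that matched a window, or 8.7%. All 4 genes were above the floor. The motif stood in a window of 299 of 7579 genes above the floor, or 3.95%, of 183 of 6026 genes not above it, or 3.04%, and of 997 of 27025 of all genes with a window, or 3.69%. A gene counted once if any of its windows held the motif, and Slco2b1 had other windows without it. A match is a description of letters and not a binding site, and the motif was searched without mismatches.

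The defining markers of microglia were above the floor with 1 exception. Cx3cr1, the receptor for the neuronal chemokine fractalkine, had signals of 10.43, 10.23 and 10.19 (mean 10.28 ± 0.13), higher than 97.4% of genes. Csf1r, the receptor for the survival factors Csf1 and Il34, had 9.09, 8.57 and 9.09 (8.92 ± 0.30), with control replicate 2 below the others. Olfml3, a secreted protein that separates microglia from many other macrophages, had 7.64, 7.18 and 7.42 (7.41 ± 0.23). P2ry12, the ADP receptor that directs the processes of surveying microglia, had 3.36, 3.38 and 3.58 (3.44 ± 0.12) and was below the floor on every array. It was read by 1 probe set, so a weak probe set and a low transcript cannot be told apart. Of the 4 markers 3 go with the label of the cells, and P2ry12 does not.

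**Figure D1:**
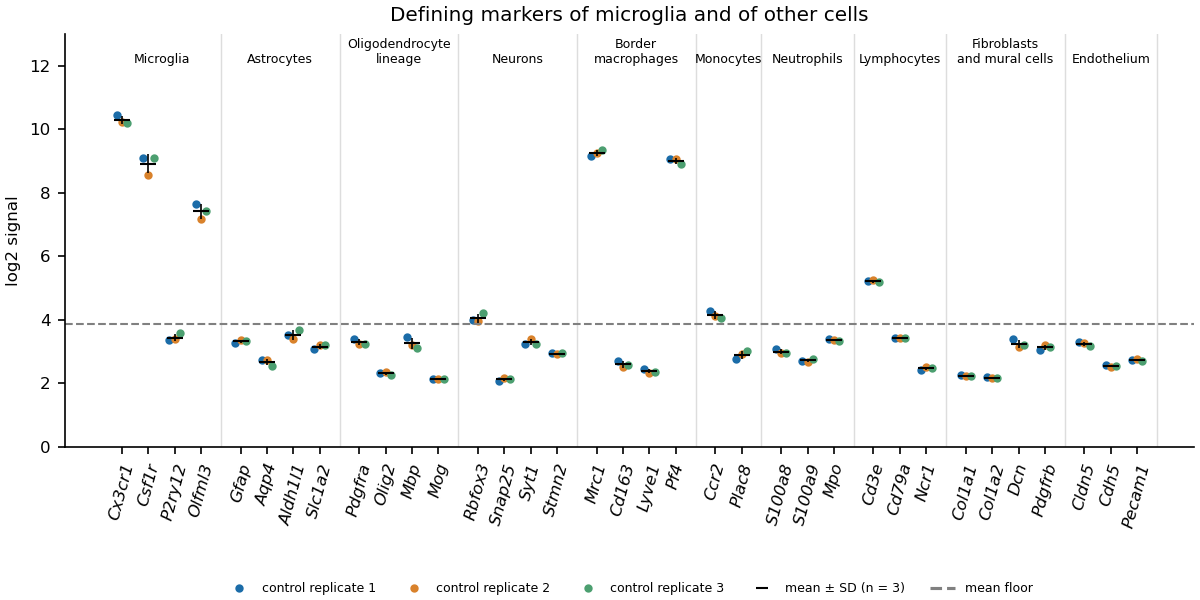
Log2 signal of the defining markers of microglia and of 9 other cell types (x axis, grouped by cell type) on the 3 untreated arrays (coloured points), with mean ± SD in black and the mean floor of the 3 arrays, 3.85, as a dashed line. Cx3cr1, Csf1r and Olfml3 and the border macrophage markers Mrc1 and Pf4 stand well over the floor, P2ry12 lies under it, and the markers of astrocytes, oligodendrocytes, neutrophils, fibroblasts and endothelium all lie at or under it.

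Genes of microglial identity were above the floor in 52 of 61 measured cases, or 85.2%, beside 54.1% of all genes. Among receptors and surface proteins 23 of 28 were above the floor, with a median of 8.41. The highest was Tyrobp, the signalling adaptor of Trem2, at 11.90, 11.90 and 11.91. Trem2, a receptor for lipids and apoptotic cells, followed at 10.97, 10.86 and 11.04 (10.96 ± 0.09). The arrays hardly differed for either gene. The other probe set of Trem2 lay under the floor at 3.52, and the brighter one is of the kind that can match several transcripts. The leukocyte phosphatase Ptprc (CD45), at 10.91 ± 0.01, and the integrin chain Itgb2, at 10.91 ± 0.07, were also well over the floor. Fcrls, a receptor known mainly from mouse microglia, had 9.81, 9.85 and 9.90 (9.85 ± 0.05). The receptor chains for transforming growth factor beta, Tgfbr2 at 9.82 ± 0.15 and Tgfbr1 at 9.78 ± 0.12, were also high, although only 1 of the 3 probe sets of Tgfbr1 was above the floor. Aif1 (Iba1), the cytoskeletal protein used to stain microglia, was at 9.33 ± 0.02, and Itgam (CD11b) was at 8.11 ± 0.17. Hpgds, a prostaglandin D synthase, was at 8.97 ± 0.12, while the organic anion transporter Slco2b1, at 5.97, 6.73 and 6.40, had the widest spread of the list (SD 0.38). The promoter windows of both were among those shown.

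A smaller group of surface genes lay close to the floor or under it. The lysophosphatidylserine receptor Gpr34, at 4.99, 4.98 and 5.06, and the ADP receptor P2ry13, at 4.65, 4.50 and 4.51, were above it by a narrow margin. Tmem119, a membrane protein used as a marker of resident microglia, had 4.12, 3.64 and 3.88 and lay over the floor on control replicates 1 and 3 and under it on control replicate 2, so it was not called above. The fructose transporter Slc2a5 (3.75 ± 0.07), the adhesion receptor Adgrg1 (3.48 ± 0.08) and the immune checkpoint receptor Lag3 (2.83 ± 0.04) were not above the floor either. With P2ry12 these made up the 5 members under it, and all but Adgrg1, which had 2, were read by 1 probe set.

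Secreted proteins and lysosomal enzymes of microglia had the highest median of the identity lists, 11.10, with 12 of 14 above the floor. Ctss, the lysosomal protease cathepsin S, had 12.21, 12.14 and 12.21 (12.19 ± 0.04). The chains of C1q, which starts the classical complement pathway, were at 11.26 ± 0.07 for C1qb, 11.24 ± 0.02 for C1qa and 11.13 ± 0.05 for C1qc. Igf1, a growth factor that microglia give to neurons and oligodendrocytes, had 11.69, 11.61 and 11.71 (11.67 ± 0.05). All 4 of its probe sets were above the floor, and each array gave nearly the same value. The protease inhibitor Cst3, at 11.52 ± 0.06, and the asparaginyl protease Lgmn, at 11.07 ± 0.05, had a similarly small spread over the arrays. The bridging proteins for uptake of dying cells, Gas6 at 10.34 ± 0.06 and Pros1 at 7.75 ± 0.15, were above the floor, as was their receptor Mertk at 7.17, 6.72 and 6.86. The matrix protein Sparc, at 3.92, 4.04 and 3.80, lay under the floor on control replicate 3 only, and the cytokine Il34, which neurons supply to microglia in the brain, was under it at 2.95 ± 0.04.

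Among transcription factors of the lineage 17 of 19 were above the floor, with a median of 7.61. Cebpb, a factor of macrophage activation, had 9.95, 9.77 and 9.64 (9.79 ± 0.16), and Mef2a, which acts at microglial enhancers, had 9.59 ± 0.15. Spi1, encoding PU.1, had 7.65, 7.41 and 7.51 (7.52 ± 0.12). Its partner Irf8 was at 8.60 ± 0.05, and Runx1, which acts in early blood and microglial progenitors, was at 8.41 ± 0.17. All these lay far over the floor on every array. Sall1, the factor that maintains the resident microglial state, had 4.79, 4.99 and 4.83 (4.87 ± 0.11) on the brighter of its 2 probe sets, while the other lay under the floor at 3.28. Smad3, which carries the transforming growth factor beta signal into the nucleus, was at 6.39 ± 0.12, with 1 of 3 probe sets above the floor. Bhlhe41 (3.82 ± 0.08) and Sall3 (3.09 ± 0.11) were not above it.

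**Figure D2:**
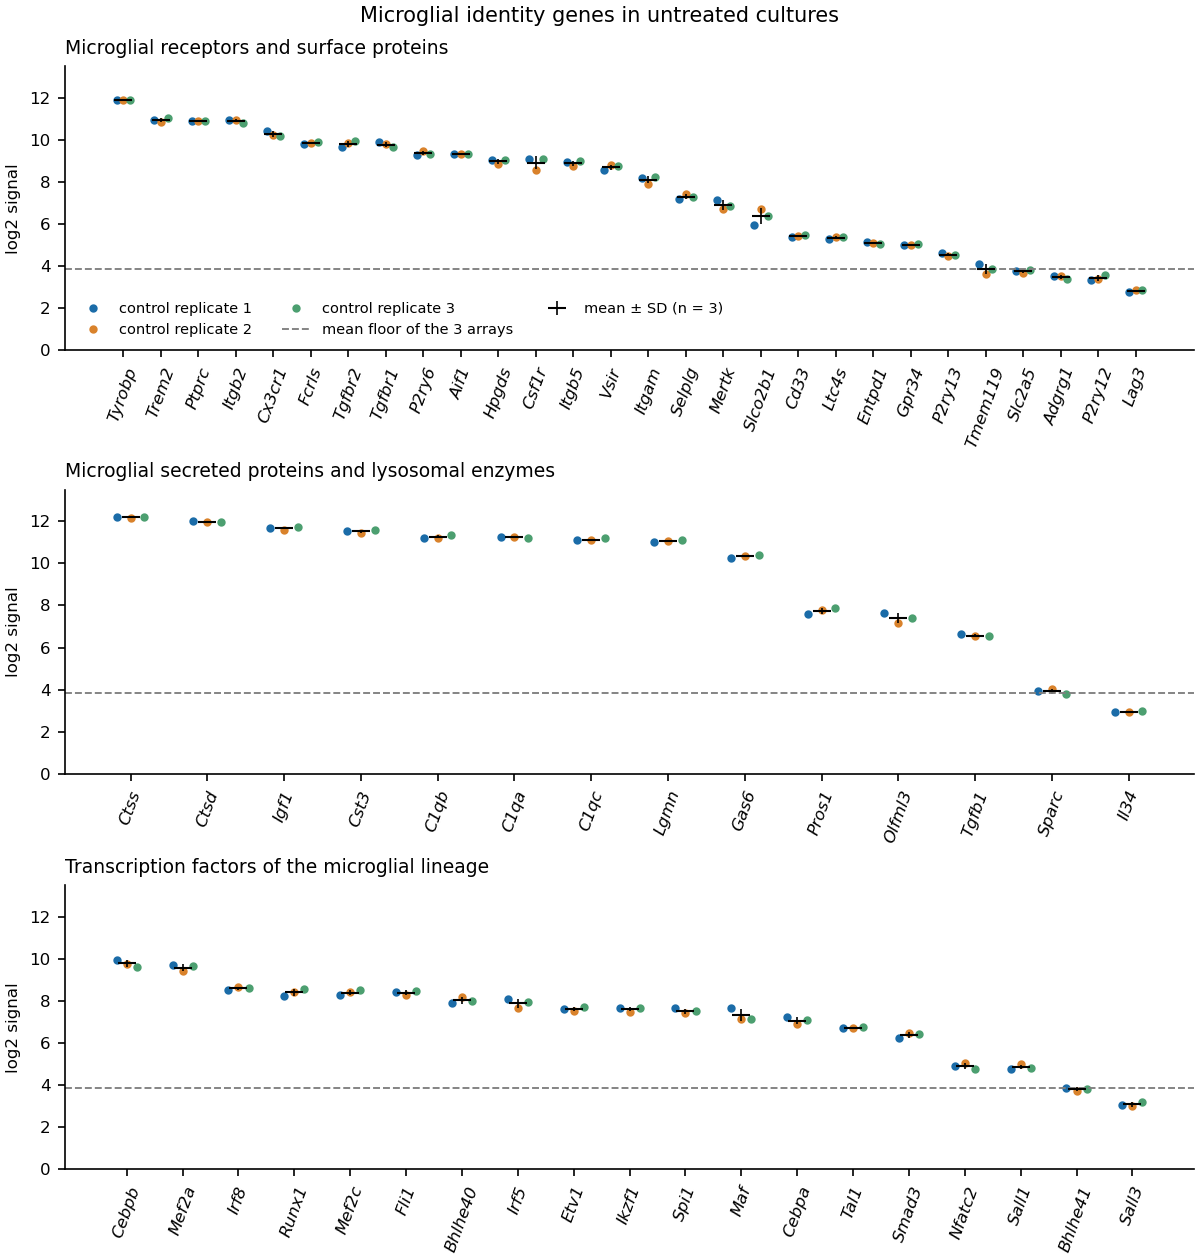
Log2 signal (y axis) of each measured gene of 3 microglial identity lists (x axis, ordered by mean) on the 3 untreated arrays, with mean ± SD (n = 3) in black and the mean floor, 3.85, as a dashed line. The points of a gene lie close together for most genes, and Tmem119, Slc2a5, Adgrg1, P2ry12, Lag3, Sparc, Il34, Bhlhe41 and Sall3 lie at or under the floor.

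Genes that mark disease-associated microglia in the brain and amoeboid microglia in culture were above the floor in 27 of 27 measured cases, with a median of 11.49, and 24 of the 27 lay higher than 90% of genes. Lgals3 (galectin-3), a sugar-binding protein of phagocytic macrophages, had 12.58, 12.57 and 12.55. Lpl, which releases fatty acids from lipoproteins, had 12.52, 12.49 and 12.50, and the lipid carrier Apoe had 12.32, 12.27 and 12.34. The SD of these genes was 0.02, 0.02 and 0.03, at signals near the highest on the arrays, 12.86. The cathepsins Ctsb (12.27 ± 0.01), Ctsl (11.89 ± 0.05) and Ctsz (11.88 ± 0.04), which degrade protein in lysosomes, and the lysosomal glycoproteins Cd68 (11.66 ± 0.04) and Gpnmb (11.63 ± 0.11) were all in the same range. The beta-glucan receptor Clec7a was at 11.29 ± 0.08. Lower signals were found for the integrin Itgax (CD11c), at 8.01, 8.21 and 7.72, and for the protease inhibitor Cst7, at 7.47, 7.44 and 6.98. The lowest member was the growth factor Csf1, at 4.75, 4.66 and 4.04, just over the floor.

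The inflammatory genes of the NF-κB response ranged from chemokines among the highest signals to several cytokines under the floor. Of 28 measured genes 20, or 71.4%, were above the floor, beside 54.1% of all genes, and the median was 6.24. The chemokines Ccl3, at 11.16, 11.06 and 11.23, and Ccl4, at 10.93, 10.82 and 10.93, which attract leukocytes, were higher than 98.6% of genes or more. Tnf, the main early inflammatory cytokine, had 7.22, 6.85 and 6.70 (6.92 ± 0.27). Il1b had 4.80, 4.23 and 4.31 (4.45 ± 0.31), a small margin over the floor. The feedback inhibitors of NF-κB, Nfkbia at 9.29 ± 0.25 and Tnfaip3 at 8.33 ± 0.14, and the superoxide dismutase Sod2 at 9.68 ± 0.18 were above the floor. Il6 (2.23 ± 0.09), Il1a (2.41 ± 0.11), Il12a (2.42 ± 0.05), Il12b (2.55 ± 0.09), Il10 (2.98 ± 0.02) and Nos2, the inducible nitric oxide synthase (3.07 ± 0.02), were not, and nor were Cxcl1 and Il23a. Of these 8 genes 7 were read by a single probe set.

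Interferon response genes were above the floor while the interferons themselves were not. The genes Ifnb1 (2.77 ± 0.04), Ifna4 (2.76 ± 0.05) and Ifng (2.26 ± 0.08) lay under it on every array. With Cxcl9 at 2.72 ± 0.12 they were the members not above it among 23, and the other 19 had signals from 4.55 for the antiviral GTPase Mx1 to 10.84 for Ifitm3, which blocks entry of viruses. Rsad2 (viperin) had 8.66, 7.44 and 6.81, and the transcription factor Irf7, which amplifies interferon production, had 6.05, 5.04 and 5.36. Control replicate 1 was highest for both.

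The markers of alternative activation were mostly at the floor, with a median of 3.46. Of 14 members 5, or 35.7%, were above it, beside 54.1% of all genes. Arg1 (arginase 1), the most used of them, had 3.27, 2.92 and 2.35 (2.85 ± 0.47), and Chil3 (2.55 ± 0.03), Retnla (3.65 ± 0.03), Pdcd1lg2 (2.72 ± 0.02), Clec10a (2.89 ± 0.11) and Ccl17 (3.10 ± 0.05) were not above the floor either. The scavenger receptor Cd36 stood out at 11.64, 11.63 and 11.52 (11.59 ± 0.07). The mannose receptor Mrc1, at 9.25 ± 0.09, and the scavenger receptor Stab1, at 9.08 ± 0.12, were the other members with high signals. Il4ra, a chain of the receptor for interleukin-4, was at 3.98 ± 0.05, a margin too small to read.

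Among antigen presentation genes the class I heavy chains H2-D1, at 11.19, 11.06 and 11.08, and H2-K1, with a mean of 11.04 ± 0.10, were high, and Tapbp, which loads peptides on them, was at 9.84 ± 0.15. Probes for these related genes may share transcripts. The other probe sets of H2-D1 lay between 3.57 and 4.29, most of them not above the floor, and those of H2-K1 between 5.22 and 9.39. The class II chains H2-Aa (3.03 ± 0.06) and H2-Ab1 (3.22 ± 0.03) and their master regulator Ciita (2.68 ± 0.06) were not above the floor at any of their 3 probe sets. Other class II genes were above it, H2-Eb1 at 3.91, 3.89 and 4.04, and the peptide loading chains H2-DMa at 4.13 ± 0.10 and H2-DMb1 at 5.30 ± 0.08. The invariant chain Cd74 was at 4.53, 4.60 and 4.45, and the co-stimulatory ligand Cd86 was at 6.07, 5.64 and 5.53. In all 9 of 12 members were above the floor, with a median of 4.33, close to that of all genes. Without the probe sets that can match several transcripts 6 members were above it.

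Genes of the cell cycle were above the floor in 19 of 19 cases, with a median of 8.22. The replication clamp Pcna had 11.54, 11.63 and 11.68, Cdk1, the kinase that drives mitosis, had 8.72, 9.08 and 9.02, and the proliferation antigen Mki67 had 7.91, 8.31 and 8.45. Control replicate 1 was the lowest for all of them. The cell cycle inhibitor Cdkn1a (p21) was at 9.90 ± 0.06. Immediate early genes, which respond to stimuli within minutes, were above the floor in 13 of 14 cases with a median of 7.53, led by Atf3 (9.92 ± 0.08), Fos (9.90 ± 0.20) and Jun (8.83 ± 0.15). Fosb, at 2.81 ± 0.10, was the exception.

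Lists for sensing and uptake were above the floor in 51 of 55 cases, or 92.7%, beside 54.1% of all genes. All 16 measured lysosomal genes were above it, with a median of 11.09: the membrane protein Lamp1 had 11.61, 11.60 and 11.59, the hexosaminidase chain Hexa had 11.60, 11.57 and 11.63, and progranulin (Grn) had 11.56, 11.49 and 11.53. Among Fc receptors and their adaptors 8 of 9 were above it, led by the adaptor Fcer1g at 11.73 ± 0.01 and by Fcgr3 and Fcgr2b, receptors for immunoglobulin G, at 10.07 ± 0.15 and 9.88 ± 0.05. The kinase Syk, which relays signals of the activating receptors, was at 3.11 ± 0.11 on its 1 probe set, under the floor. Among Toll-like receptors and adaptors 13 of 15 were above it. Cd14, the co-receptor for lipopolysaccharide, had 11.60, 11.48 and 11.49, Tlr4 had 9.03, 8.73 and 9.04, Tlr7, for single-stranded RNA, had 8.84, 8.77 and 9.03, and Tlr2, for lipopeptides, had 9.23, 8.71 and 8.68. Tlr9, for unmethylated DNA, at 3.95, 3.78 and 3.71, and Tlr12 were not above the floor. Among receptors of growth factors and cytokines 14 of 15 were above it: Il10rb was at 9.83 ± 0.11, Csf2rb, shared by receptors of the GM-CSF family, was at 9.50 ± 0.16, and the interferon receptor chains Ifnar2, Ifngr1, Ifngr2 and Ifnar1 were at 9.18, 8.68, 8.14 and 7.70. Il1r1, the receptor for interleukin-1, was under the floor at 2.48 ± 0.08.

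**Figure D3:**
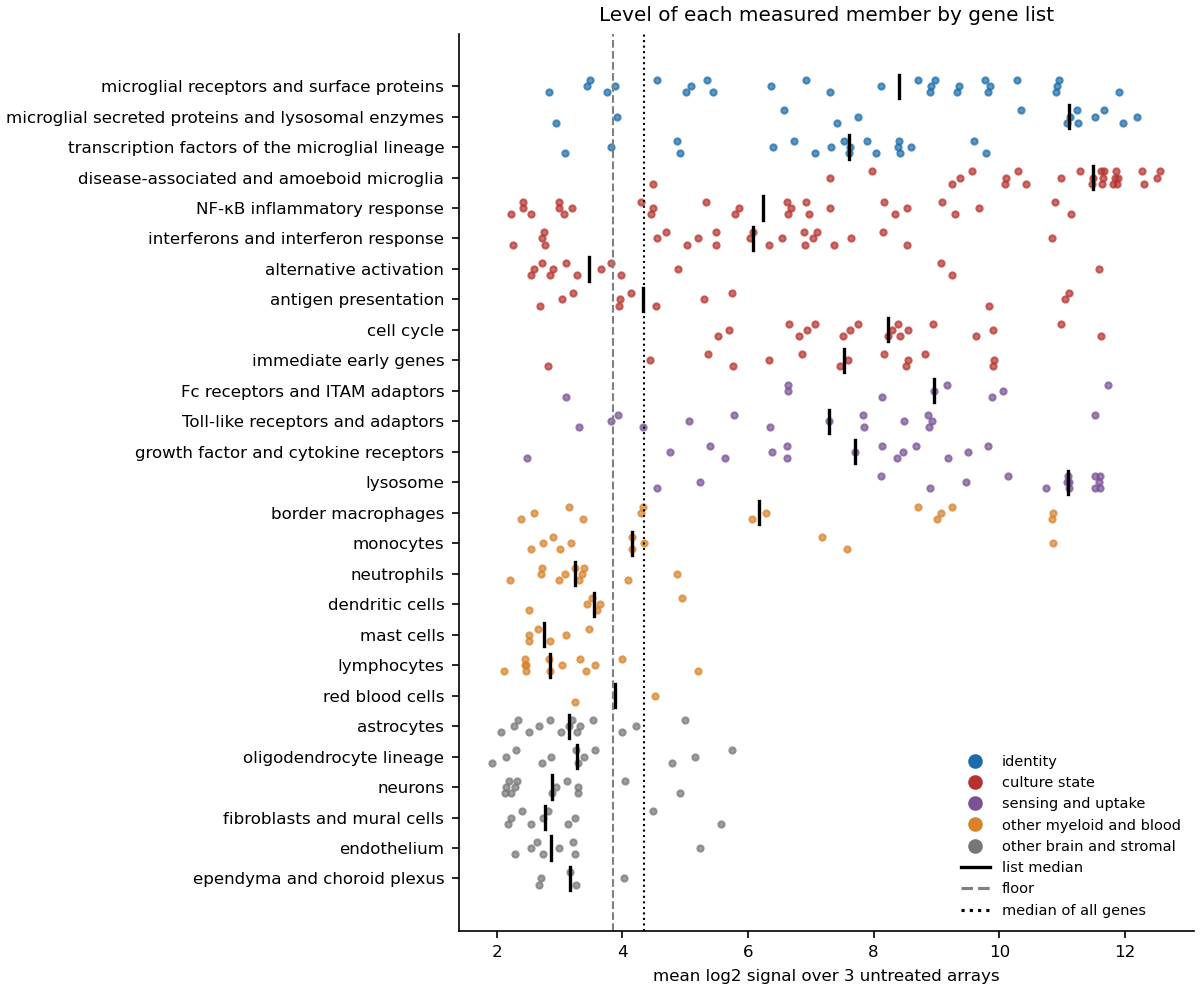
Mean log2 signal over the 3 untreated arrays (x axis) of each measured member of 27 gene lists (rows), coloured by category, with the list median as a black bar, the mean floor of 3.85 as a dashed line and the median of all genes, 4.35, as a dotted line. Disease-associated and amoeboid genes (median 11.49), secreted and lysosomal microglial proteins (11.10) and lysosomal genes (11.09) lie farthest to the right, and lists of other brain cells have medians left of the floor.

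Genes of other myeloid and blood cells were above the floor in 22 of 63 cases, or 34.9%, beside 54.1% of all genes. Of the 7 that were higher than 90% of genes 6 belonged to the list of macrophages at the borders of the brain. Of that list 10 of 14 were above the floor, with a median of 6.17. The endocytic adaptor Dab2 had 10.60, 10.99 and 10.96, the membrane protein Ms4a7 had 10.91, 10.76 and 10.87, and the folate receptor Folr2 had 8.60, 8.70 and 8.81. Of the 4 defining markers Mrc1, at 9.15, 9.26 and 9.33, and the platelet factor Pf4, at 9.06, 9.05 and 8.90, were above the floor. Cd163, a receptor for haemoglobin, at 2.60 ± 0.10, and Lyve1, a hyaluronan receptor, at 2.38 ± 0.06, were under it on every array, as were Cbr2 and F13a1. Microglia in culture and a share of border macrophages cannot be told apart from these bulk values, nor can fewer cells of a type and less RNA per cell.

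Monocyte genes were above the floor in 6 of 11 cases, or 54.5%, near the 54.1% of all genes, with a median of 4.15. S100a4, a calcium-binding protein of motile cells, had 10.79, 10.84 and 10.94, and the integrin Itgal had a mean of 7.58 ± 0.52. Both are also used by other leukocytes. Ccr2, the receptor that brings monocytes into tissue, had 4.28, 4.13 and 4.05 on the brightest of its 4 probe sets, the other 3 not being above the floor, and Plac8 was under it at 2.90 ± 0.13. Neutrophil genes were above the floor in 2 of 11 cases, the gelatinase Mmp9 at 5.02, 5.42 and 4.16 and Ltf at 4.08 ± 0.13, while the granule and alarm proteins S100a9 (2.72 ± 0.05), S100a8 and Mpo (3.36 ± 0.02) were not. Lymphocyte genes were above it in 2 of 13 cases. Cd3e had 5.21, 5.25 and 5.17, while Cd3d (3.57 ± 0.09) and Cd3g (2.11 ± 0.10), which form the same T-cell receptor complex, were not above the floor, and Cd4 was at 3.99 ± 0.04. Of 6 dendritic cell genes only Batf3, at 4.95 ± 0.09, was above it, none of 6 mast cell genes was, and the haemoglobin gene Hba-a1, at 4.52 ± 0.13, was the 1 of 2 genes of red blood cells.

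Genes of other brain and stromal cells were above the floor in 12 of 63 cases, or 19.0%. The share was 54.1% among all genes and 11.6% among the lens, keratin, testis and gut genes. None of the 63 was higher than 90% of genes. The highest signals, all under that of Csn2 among the lens, keratin, testis and gut genes, were those of Cnp and Postn. Cnp, an enzyme of myelin, had 5.79, 5.64 and 5.79, and Postn, a matrix protein, had 5.51, 5.90 and 5.33. Mixed glial flasks hold mainly astrocytes, and of 15 astrocyte genes Aldoc (4.99 ± 0.22), Ndrg2 (4.22 ± 0.26) and Fgfr3 (3.94, 3.94 and 4.11) were above the floor. The defining genes Gfap, at 3.27, 3.35 and 3.34, Aqp4, at 2.72, 2.74 and 2.55, Aldh1l1, at 3.53 ± 0.15, and Slc1a2, at 3.06, 3.20 and 3.20, were not. The defining genes of oligodendrocytes, Pdgfra, Olig2, Mbp and Mog, were between 2.15 and 3.29, although Sox10 was at 5.15 ± 0.03 on 1 of its 3 probe sets and Mag at 4.80 ± 0.15. Among defining genes of neurons Snap25 (2.13 ± 0.05), Stmn2 (2.94 ± 0.01) and Syt1 (3.30 ± 0.09) were not above the floor, and Rbfox3 (NeuN), at 3.98, 3.95 and 4.20, was just over it. Col1a1, Col1a2, Dcn and Pdgfrb of fibroblasts and mural cells, and Cldn5, Cdh5 and Pecam1 of endothelium, were all under it. Kdr, a receptor for vascular endothelial growth factor, was at 5.23 ± 0.14, the only 1 of 8 endothelial genes above the floor, and the choroid plexus gene Ttr was at 4.03 ± 0.07.

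Xist and 3 Y-linked genes were above the floor on every array. The X-inactivation RNA Xist had 8.45, 8.85 and 8.71, and of the Y-linked genes Eif2s3y had 7.69, 7.55 and 7.60, Kdm5d had 5.63, 5.48 and 5.70 and Uty had 5.61, 5.45 and 5.60. No array stood apart from the others in these genes. Differences between the means of the replicate numbers are absent from the values, so cultures of unlike sex could not be told apart here.

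The 25 genes with the highest signals outside ribosomal and mitochondrial transcripts all lay between 11.97 and 12.76. They were, in order, Eif3f, Actb, Fth1, Lgals3, Tmsb4x, Lpl, Eef1a1, Lyz2, Akr1a1, Apoe, Ftl1, Ctsb, Prdx1, Tuba1b, Ctss, Ppia, Itm2b, Arpc2, Tmsb10, Lilrb4a, Pabpc1, Plin2, Phf20l1, Cox6a1 and Ctsd. The names are those of the annotation and were not checked against the probes. Eif3f, Lyz2, Tuba1b, Tmsb10 and Lilrb4a were read by probe sets of the kind that match several transcripts, so their signals may belong in part to other genes. Lyz2 is the lysozyme of myeloid cells, at 12.34, and Lilrb4a is an inhibitory receptor of the same cells, at 12.13. Several of these names led to families that were described after the values had been seen.

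All 16 measured genes of lipid uptake, storage and efflux were above the floor, with a median of 9.51. Beside Lpl, Apoe and Cd36, the lipid droplet protein Plin2 had 12.18, 11.99 and 11.99, and the fatty acid carriers Fabp5 and Fabp4 were at 11.81 ± 0.08 and 9.98 ± 0.26. Abcg1, which exports cholesterol, had 8.42, 9.34 and 9.33, with control replicate 1 below the others. Of 12 iron genes 10 were above the floor, with a median of 9.37: the ferritin chains Fth1 and Ftl1 were at 12.59 ± 0.04 and 12.30 ± 0.03, the haem-degrading enzyme Hmox1 had 11.04, 10.40 and 10.50, and the iron exporter Slc40a1 had 10.09, 9.12 and 9.33. Control replicate 1 was highest for Hmox1 and Slc40a1. The iron hormone Hamp and the ferroxidase Cp were not above the floor.

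Complement genes were above the floor in 10 of 15 cases, or 66.7%, beside 54.1% of all genes, with a median of 7.98. The receptors for the fragments of C3 and C5, C3ar1 and C5ar1, were at 10.94 ± 0.11 and 8.71 ± 0.06, and properdin (Cfp) was at 7.43 ± 0.04. C4b, Cfb, C1ra, Cd55 and the complement receptor Vsig4 (2.44 ± 0.05) were not above the floor. Of 34 chemokines and their receptors 19, or 55.9%, were above it, near the 54.1% of all genes. Ccl9 had the highest signal, at 11.93, 11.89 and 11.78, and Cxcl14 was at 8.49 ± 0.08, while Cxcl12 (2.87 ± 0.01), Ccl11 (2.06 ± 0.12) and the receptor Cxcr3 (3.37 ± 0.15) were under it. Among 14 receptors for nucleotides and adenosine only 4, or 28.6%, were above the floor, beside 54.1% of all genes. The ATP channels P2rx4, at 9.84, 9.65 and 9.51, and P2rx7, at 7.17 ± 0.08, and the UDP receptor P2ry6, which triggers phagocytosis, at 9.29, 9.48 and 9.32, were well over it and P2ry13 just over it, in contrast to P2ry12.

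**Figure D4:**
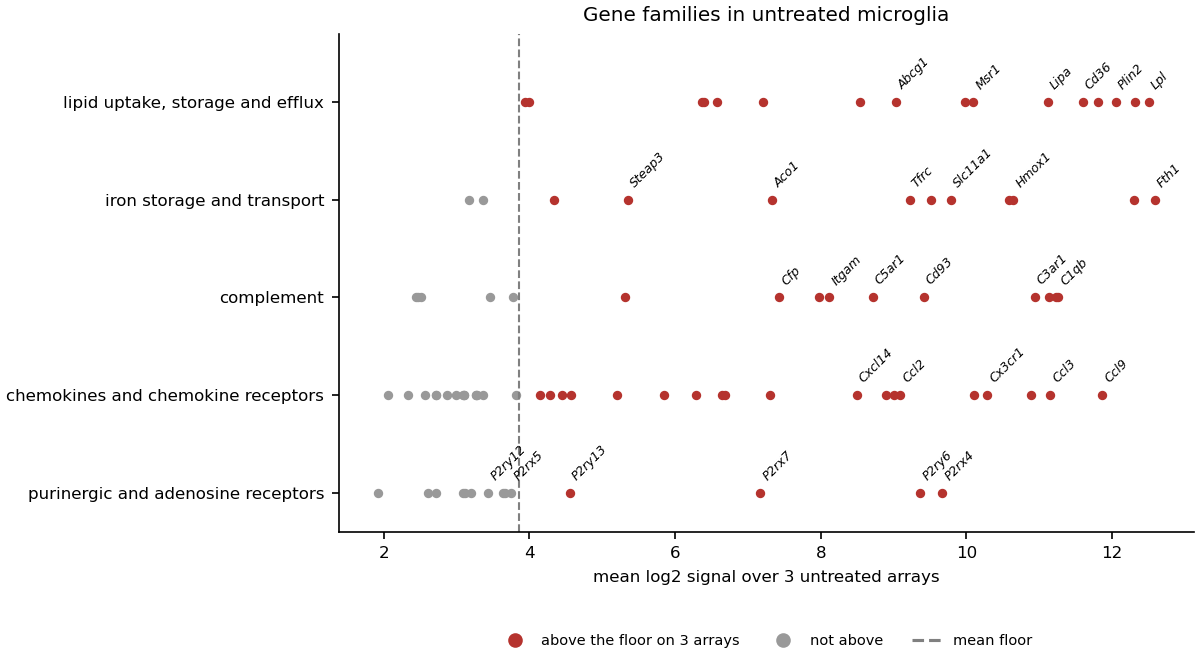
Mean log2 signal over the 3 untreated arrays (x axis) of each measured gene of 5 families chosen after the values were seen (rows), red where above the floor on all 3 arrays, grey otherwise, with the mean floor of 3.85 as a dashed line. All 16 lipid genes lie right of the floor, and of the purinergic receptors only P2rx4, P2ry6, P2rx7 and P2ry13 do.

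In the values as deposited the untreated arrays differed in a limited set of genes. Differences between the means of the replicate numbers are absent from them, so how far the cultures differed cannot be read here. Among genes above the floor 90% had an SD under 0.19, and 50 had one over 0.5, of which 39 were highest on control replicate 1. The widest spread was that of Id3 and Id1, inhibitors of differentiation that respond to bone morphogenetic proteins. Id3 had 7.99, 4.96 and 7.72 (SD 1.67) and Id1 had 7.82, 5.67 and 7.60 (SD 1.18), both low on control replicate 2. Smad6, a feedback inhibitor of the same pathway, had 5.78, 3.68 and 5.20, and so dropped under the floor on control replicate 2 alone, whereas Id2 stayed at 10.82, 10.65 and 10.87. The next 8 genes by SD were Ifit1, Cxcl10, Gbp2, Ifit2, Ccl5, Acod1, Ifit3 and Cmpk2, all highest on control replicate 1. Most of them are induced by interferon.

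In the whole interferon list 18 of 19 genes above the floor were highest on control replicate 1, beside 33.7% of all genes above the floor. This count was made after the values had been seen. Ifit1 had 7.62, 5.92 and 5.44 (SD 1.15), Cxcl10 had 6.40, 4.90 and 4.29 (SD 1.09) and Gbp2 had 6.73, 4.89 and 4.87 (SD 1.07), so control replicate 1 lay clear of the other arrays. Of the NF-κB list 15 of 20 were highest on the same array, among them Ccl5 at 7.85, 6.01 and 6.21 and Cxcl2 at 7.76, 7.37 and 6.80, and of the Toll-like receptor list 10 of 13 were. The genes of the amino acid stress response, many of which serve the synthesis of serine and asparagine under control of Atf4, followed with 13 of 13, in a list chosen after this was seen. Phgdh had 8.76, 7.69 and 7.24, Asns had 9.76, 9.01 and 8.55, and Trib3 had 5.83, 5.07 and 4.51. The cell cycle list went the other way, with 17 of 19 genes highest on control replicate 3, beside 31.9% of all genes above the floor. Its replication licensing genes spread most, Mcm3 at 6.13, 6.69 and 7.15, Mcm2 at 6.64, 7.12 and 7.45 and Mcm5 with a mean of 6.93 ± 0.40. The members of a list were read on the same 3 arrays and are not independent of each other. Since the means of the replicate numbers are equal, a high untreated array and low treated arrays of the same number cannot be told apart here.

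**Figure D5:**
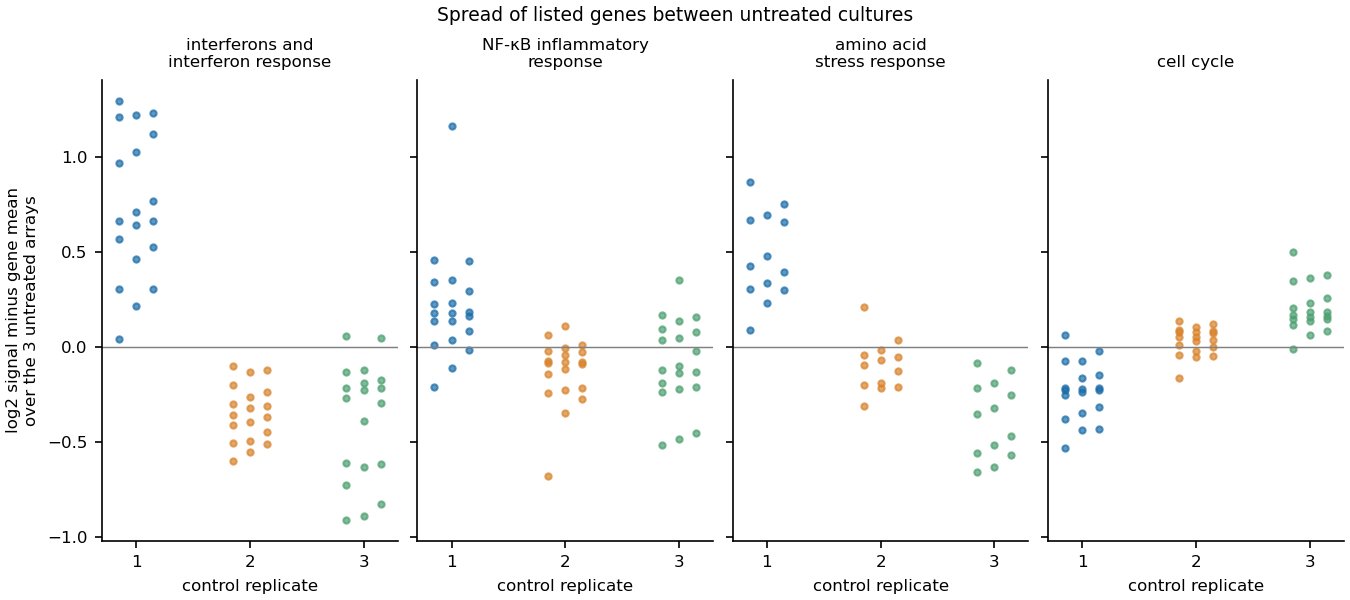
Log2 signal of each gene above the floor minus its mean over the 3 untreated arrays (y axis), by control replicate (x axis, no order), for 4 gene lists. Interferon and amino acid stress genes lie over 0 on control replicate 1 (highest there for 18 of 19 and 13 of 13 genes), and cell cycle genes on control replicate 3 (17 of 19). Of all genes above the floor 33.7% were highest on control replicate 1 and 31.9% on control replicate 3. The interferon count was made, and the amino acid stress list chosen, after the values were seen.

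The median SD was 0.06 for secreted and lysosomal microglial proteins, 0.08 for disease-associated and amoeboid genes and 0.04 for lysosomal genes. For all genes above the floor it was 0.08. The interferon list had 0.59, and the amino acid stress genes, a list chosen after their spread was seen, had 0.43. The first 3 lists have medians over 11 on the log2 scale, and the part of the signal level in their SD was not tested.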

How the data were processed

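RNA of 9 microglial samples was hybridised by the authors to Affymetrix mouse arrays after biotin labelling. The deposited values are log2 signals per probe set, normalized by the authors. The method of normalization is not stated for these arrays in so many words: the study's methods name RMA where they turn to other data sets, which may or may not cover these arrays. The notes of the submitters name limma, and the deposited replicate means are equal at each probe set, as the report says. No build is named for the arrays. The columns of all 9 arrays were read, those of the 3 control arrays for the levels. The rest served only to compare replicate means and to choose probe sets in an alternative setting.

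Of 45141 probe sets 104 were controls. Symbols came from the platform annotation, updated through RefSeq: 28898 probe sets had 1 symbol (28689 matched to a current one), 551 had several and 15588 were unnamed here. The brightest probe set over the 3 control arrays stood for each gene, and 7180 of 17097 genes had a choice. Chemoreceptor genes had 1.06 probe sets on average and all genes 1.69, which favours genes at large against the floor, and of those chemoreceptor genes 3.53% were above it by construction. The precision is limited by the number of arrays (3).

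No groups were compared and no test was run, since the values describe 1 group. The genes and lists were chosen with earlier results of these data known. Named were the defining markers, in each list the members with the highest signals and those not above the floor, up to 6 each, the 25 genes with the highest signals, the 10 with the largest SD and members with probe sets on both sides of the floor, up to 10; the 7 added families and other genes given as examples were chosen after their values were seen. The code was checked on simulated data. Alternatives were the 90th and 99th percentile as floor, the lens, keratin, testis and gut genes as floor, the mean of all probe sets, the brightest over all 9 arrays or without those that match several transcripts, the mean of the arrays against the mean floor, quantile normalization and leaving out each array. Python 3.11.15, NumPy 2.4.6, pandas 2.3.3 and matplotlib 3.10.9 were used. Some listed genes are not reported here.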

Additional observations from a re-analysis of the deposited data

Results flagged for a closer look

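Of the 15588 probe sets that the annotation used here does not name, 4064, or 26.1%, were above the floor on all 3 untreated arrays. They entered no gene list, and were set apart because a signal stood over the floor in data that the report does not use.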

How the results depend on the processing

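The counts of genes above the floor, for all genes and for the 5 categories of lists, were computed again under each alternative, and 63 of 66 stayed within 1.5 times their value. With the lens, keratin, testis and gut genes as the floor, other myeloid and blood genes above it numbered 13 and other brain and stromal genes 7. With the mean of all probe sets of a gene, other brain and stromal genes above the floor numbered 6. Of the defining markers 33 of 35 kept their side of the floor throughout. Rbfox3 changed side, its smallest margin over the floor going to -0.23 with the 99th percentile, -0.59 with the second panel and -0.45 with the mean of all probe sets, and so did Ccr2, at -0.14, -0.43 and -0.46 in the same settings. Of the counts for single lists 284 of 308 stayed within 1.5 times their value. With members under the floor included, an alternative chosen after seeing the data, 20 of 23 interferon genes were highest on control replicate 1. Genes close to the floor, such as Tmem119, Sparc and Il4ra, are not resolved by these arrays. No paired analysis was possible because the results come from no test between groups.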
